A study of Mus musculus with 24 samples.

Results

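Expression of 9 ion channel genes was described in the mouse heart. The genes were Kcnd2, Kcnd3, Kcnip2, Kcna4, Kcna5, Kcnh2, Kcnq1, Hcn2 and Hcn4, taken by symbol from the deposited array values. Of these 9 genes, 8 were measured, out of 18193 genes with at least 1 probe set of a single symbol, and Hcn4 was not analysed here. The 8 genes had 17 probe sets, and each gene is given by its brightest probe set (mean of the 24 arrays), with the others as a check. All values are log2 expression values. To be tested in heart or lung, a probe set needed 3 or more of that tissue's 12 arrays above a log2 value of 4, and all 8 genes passed in heart.

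Arrays were run on lung and on the left ventricle of the heart of CD-1 mice of 20 weeks, labelled male, with 3 arrays in each of 8 groups. The mice were wild type (WT) or dnCREB, whose transgene encodes dominant negative CREB1, a transcription factor, under a cardiomyocyte-specific myosin heavy chain promoter, which is meant to limit it to heart muscle cells. They are known as a model of heart failure. Mice of either genotype received phosphate-buffered saline (PBS) or particulate matter (PM) at 20 mg/kg with particles of 1.9 µm. For PM the labels state a harvest after 36 h and write it for the lung. The design text speaks of groups of 3 animals. The p-values rest on the spread between samples within groups, pooled over the groups fitted together and moderated over all genes tested. Whether the lung and the heart with the same replicate number came from 1 animal is not stated.

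Voltage-gated potassium channels open as a heart muscle cell depolarises and carry the outward current that ends its action potential. Kcnd2 and Kcnd3 encode the pores of the fast transient outward current, which dominates early repolarisation in the mouse ventricle, and Kcnip2 encodes the calcium-binding subunit that brings these pores to the cell surface. Kcna4 encodes the pore of the slow transient outward current and Kcna5 that of an ultrarapid delayed rectifier. Kcnh2 and Kcnq1 encode the pores of the rapid and the slow delayed rectifier. Hcn2 and Hcn4 encode pacemaker channels, which open on hyperpolarisation and are directly bound by cyclic AMP. Loss of transient outward current is a known feature of failing ventricle.

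The labelled genotype was visible in heart, while the labelled sex was borne out on 5 of the 12 heart arrays. Of 6 Creb1 probe sets, 2 were higher in all 6 dnCREB hearts than in all 6 WT hearts, 1 of them at 9.05 to 12.00 against 2.51 to 3.29. Xist, which is expressed in cells with an inactive X chromosome, was above the Y-linked gene Eif2s3y on all 6 WT heart arrays but on only 1 of 6 dnCREB arrays, dnCREB PM replicate 3. Genotype and sex-chromosome class were thus almost the same split of the heart arrays. In lung the class was mixed, with Xist above Eif2s3y on 2 of 6 WT and 4 of 6 dnCREB arrays, and both genes under 4 on the other 2 dnCREB arrays. Pearson correlations between heart arrays ran from 0.979 to 0.997. All 12 cardiomyocyte markers passed the filter in heart.

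Kcnd2 and Kcnd3, the pores of the fast transient outward current, were lower in dnCREB hearts than in WT hearts. Kcnd2 read 10.42, 10.58 and 10.51 on the 3 WT PBS arrays and 10.81, 10.17 and 10.84 under PM. It read 8.42, 8.95 and 9.20 on the dnCREB PBS arrays and 8.37, 7.95 and 8.45 under PM. The highest dnCREB array was thus below the lowest WT array. The mean fell from 10.50 ± 0.08 to 8.85 ± 0.40 (SD, n = 3) under PBS, a log2 difference of -1.65 ± 0.24 (SE) and 3.13-fold lower (limma, adjusted p = 0.00133). Under PM it fell from 10.60 ± 0.38 to 8.26 ± 0.27 (SD, n = 3), a difference of -2.35 ± 0.24 and 5.09-fold lower (limma, adjusted p = 0.000249).

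Kcnd3 stood at 8.50, 8.93 and 8.41 in WT PBS hearts and at 8.62, 8.22 and 9.08 in WT PM hearts. The dnCREB PBS hearts were at 7.85, 8.07 and 8.02 and the dnCREB PM hearts at 7.44, 7.58 and 7.45, all 6 under every WT array. The difference of -0.63 ± 0.21 (SE) under PBS missed the threshold (limma, adjusted p = 0.0578). It passed under PM, at -1.15 ± 0.21 and 2.22-fold lower (adjusted p = 0.00436), and averaged over the exposures, at -0.89 ± 0.15 (adjusted p = 0.00111). The PBS difference passed when WT PM replicate 2 or 3 was left out (adjusted p = 0.0299 and 0.0288), which changes only the estimate of the spread, and under 4 other settings, among them quantile normalization (-0.80, adjusted p = 0.0170). Whether the genotype difference of Kcnd3 was larger under PM than under PBS is the interaction given further on, which did not pass.

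**Figure D1:**
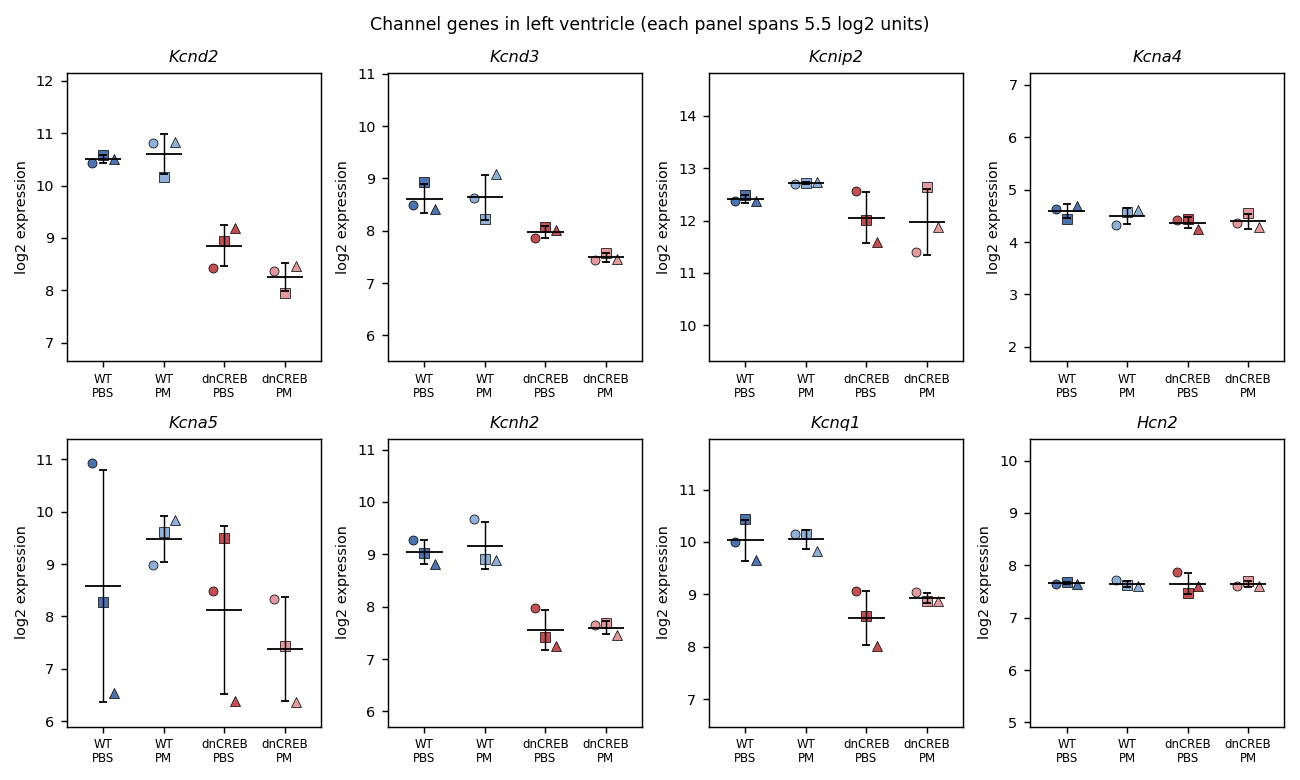
Log2 expression of the 8 measured channel genes on the 12 left ventricle arrays, by group, each panel spanning 5.5 log2 units. Points are arrays (circle, square and triangle for replicates 1, 2 and 3), horizontal lines are group means and error bars are the SD over 3 arrays; Kcnd2, Kcnd3, Kcnh2 and Kcnq1 have all 6 dnCREB arrays below all 6 WT arrays.

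The rapid and slow delayed rectifier pores were lower in dnCREB hearts under both exposures. Kcnh2 read 9.28, 9.02 and 8.82 in WT PBS hearts and 9.68, 8.92 and 8.89 in WT PM hearts, against 7.98, 7.42 and 7.24 in dnCREB PBS hearts and 7.64, 7.70 and 7.46 in dnCREB PM hearts. No dnCREB array reached the lowest WT array. Kcnh2 was 2.81-fold lower under PBS, a difference of -1.49 ± 0.24 (SE; limma, adjusted p = 0.00275), and 2.95-fold lower under PM, a difference of -1.56 ± 0.24 (adjusted p = 0.00222).

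Kcnq1 read 10.01, 10.44 and 9.65 in WT PBS hearts and 10.15, 10.16 and 9.84 in WT PM hearts. In dnCREB hearts it read 9.06, 8.58 and 8.01 under PBS and 9.04, 8.88 and 8.88 under PM, again with no overlap between genotypes. The difference was -1.48 ± 0.26 (SE) under PBS, or 2.79-fold lower (limma, adjusted p = 0.00385), and -1.12 ± 0.26 under PM, or 2.17-fold lower (adjusted p = 0.0136). Averaged over the exposures, Kcnd2 fell by 2.00 on the log2 scale, with differences of -1.53 for Kcnh2 and -1.30 for Kcnq1 (adjusted p = 2.21e-05, 0.000128 and 0.000453).

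The other 4 genes did not pass the genotype test under either exposure. Kcnip2, the accessory subunit, read 12.36, 12.50 and 12.38 in WT PBS hearts and 12.69, 12.71 and 12.73 in WT PM hearts. The dnCREB arrays were more spread, at 12.56, 12.02 and 11.59 under PBS and 11.39, 12.64 and 11.87 under PM, so that dnCREB PBS replicate 1 and dnCREB PM replicate 2 lay among the WT arrays. The differences were -0.36 ± 0.30 (SE) under PBS and -0.74 ± 0.30 under PM (limma, adjusted p = 0.427 and 0.104). Averaged over the exposures the difference was -0.55 ± 0.21 (adjusted p = 0.0641). Single arrays moved these values both ways. The averaged difference passed without dnCREB PBS replicate 1 (-0.68, adjusted p = 0.0281) and without dnCREB PM replicate 2 (-0.72, adjusted p = 0.00868), and the PM difference passed without the latter (-1.08, adjusted p = 0.0146). Without dnCREB PM replicate 1 they were -0.41 and -0.46 (adjusted p = 0.123 and 0.310), and the PBS difference was -0.13 without dnCREB PBS replicate 3 (adjusted p = 0.854). The averaged difference also passed after quantile normalization, with array weights and with arrays centred on the median of the genes tested (adjusted p = 0.0484, 0.0448 and 0.0247), and the PM difference with array weights (adjusted p = 0.0415).

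Kcna5, the ultrarapid delayed rectifier pore, varied most within groups. It read 10.93, 8.28 and 6.53 in WT PBS hearts, 8.99, 9.62 and 9.83 in WT PM hearts, 8.49, 9.50 and 6.38 in dnCREB PBS hearts and 8.34, 7.43 and 6.37 in dnCREB PM hearts. Replicates of 1 group thus spanned several log2 units. The SD within groups was 1.47, larger than that of 99.5% of the 1357 genes whose heart mean lay within 0.5 of its own. The genotype difference was -0.46 ± 1.06 (SE) under PBS and -2.10 ± 1.06 under PM (limma, adjusted p = 0.799 and 0.192), with a 95% interval under PM from -4.45 to 0.24. Under PBS it turned to 0.72 without WT PBS replicate 1 and to 0.42 without dnCREB PBS replicate 3, and it lay at -1.48 without WT PBS replicate 3. Under PM the 3 dnCREB arrays all lay below the 3 WT arrays, and the difference passed when only these arrays were fitted (adjusted p = 0.0492).

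Hcn2, a pacemaker channel, kept within a narrow range. Its 12 heart arrays ran from 7.48 to 7.87, with group means of 7.66 and 7.65 in WT and 7.65 and 7.64 in dnCREB. The difference was -0.01 ± 0.11 (SE) under PBS, with a 95% interval from -0.25 to 0.23, and -0.02 ± 0.11 under PM, with an interval from -0.26 to 0.23. Its sign turned with the centring of the arrays and with single arrays left out. The SD within groups was 0.11, and 7.14% of the 1079 genes of like level had a smaller one.

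Kcna4, the slow transient outward pore, lay just above the level of 4 in heart, between 4.25 and 4.69 on all 12 arrays. It differed between genotypes by -0.22 ± 0.12 (SE) under PBS and -0.10 ± 0.12 under PM (limma, adjusted p = 0.251 and 0.608). Its other probe set lay under 4 on all heart arrays. The 3 genes whose pattern was most like it, Olfm3, Meioc and Nxph1, lay between 3.68 and 4.15 on these arrays. Their Pearson r with Kcna4 was 0.997, 0.996 and 0.996, and 0.996, 0.995 and 0.996 after the group means were removed. Whether the Kcna4 values stood above background was not tested.

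Counted together, 3 of the 8 genes passed lower and 0 higher under PBS, where 5.6% of the 9962 genes tested were called lower. Under PM 4 of 8 passed lower, against 9.13% of all genes, and averaged over the exposures 4 of 8, against 13.6%. All 8 differences were below 0 in each of these comparisons as deposited, although Hcn2 turned to 0.022 under PBS and 0.0056 in the average with arrays centred on their median. The 8 had a median of -0.54 under PBS and -1.13 under PM against 0.09 and 0.02 over all genes tested. The 3 dnCREB arrays lay below the 3 WT arrays for 5 genes under PBS, as for 16.9% of all genes, and for 6 under PM, as for 16.2%. Kcna4, just above the level of 4, was among the 5 but not among the 6. All 6 dnCREB arrays lay below all 6 WT arrays for Kcnd2, Kcnd3, Kcnh2 and Kcnq1, as for 8.69% of all genes. The all-gene background moved with scaling. Under PBS 1311 genes were called higher and 558 lower as deposited, 1076 and 882 after quantile normalization, and 917 and 1188 with arrays centred on the median of the genes tested, and the median of all genes moved from 0.09 to -0.04 and -0.13. Averaged over the exposures the counts were 2224 and 1354, 1938 and 2138, and 1644 and 2592. Under PM they were 1132 and 910 as deposited and 1011 and 1355 with that centring. Kcnd2, Kcnh2 and Kcnq1 were called lower under each of these scalings.

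**Figure D2:**
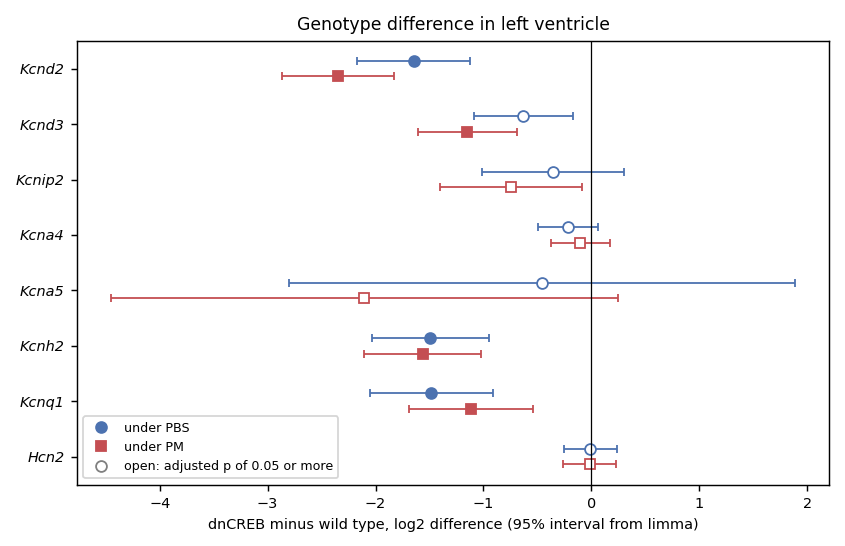
Difference between dnCREB and WT hearts in log2 units for the 8 channel genes, under PBS (blue circles) and under PM (red squares), with the 95% interval from limma. Filled symbols have an adjusted p under 0.05; Kcnd2, Kcnh2 and Kcnq1 are filled under both exposures, Kcnd3 under PM, and the interval of Kcna5 is the widest.

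Because the sex-chromosome class of the hearts nearly coincided with the genotype, each genotype result was also fitted with the class as a covariate, a fit that rests on dnCREB PM replicate 3. The differences under PBS were then -1.35 for Kcnd2, -1.70 for Kcnh2 and -1.56 for Kcnq1, and none passed (limma, adjusted p = 0.131, 0.0814 and 0.127). The number of genes called in all fell from 1869 to 337. Under PM Kcnd2 (-2.15, adjusted p = 0.00728), Kcnd3 (-1.19, adjusted p = 0.0421) and Kcnh2 (-1.70, adjusted p = 0.0217) passed, and Kcnq1 did not (-1.17, adjusted p = 0.0913). Averaged over the exposures Kcnd2 (-1.75, adjusted p = 0.0164) and Kcnh2 (-1.70, adjusted p = 0.0232) passed, while Kcnd3 (-0.94, adjusted p = 0.0986) and Kcnq1 (-1.37, adjusted p = 0.0611) did not. The array of the WT class itself, dnCREB PM replicate 3, read 8.45 for Kcnd2, 7.45 for Kcnd3, 7.46 for Kcnh2 and 8.88 for Kcnq1, each below all 6 WT hearts. With the class in the fit, the difference under PM is this 1 array minus the mean of the WT PM hearts. Its readings are therefore not a separate check of that fit. The array was below all 6 WT hearts for all 8 genes, as for 32.4% of all genes tested. For Kcna4 and Hcn2 the margin was small (4.28 against 4.32, and 7.60 against 7.61). Without that array the same numbers of the 8 genes, 3 and 4, were called under PBS and PM. Class and genotype are then the same split of the heart arrays, so these calls cannot tell them apart.

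The other probe sets bore on Kcnd2 and Kcnip2. Kcnd2 had another probe set at 9.19, 9.64 and 9.59 in WT PBS hearts and at 9.58, 9.07 and 9.51 in WT PM hearts, against 6.05, 6.06 and 6.04 in dnCREB PBS hearts and 6.05, 6.07 and 7.21 in dnCREB PM hearts. Of the 6 dnCREB arrays 5 thus read almost the same value, and dnCREB PM replicate 3 stood above them. Another Kcnd2 probe set read 6.57, 6.85 and 7.21 in WT PBS and 5.40, 5.02 and 5.17 in dnCREB PBS hearts. These probe sets differed by -3.43 and -1.68 on the log2 scale under PBS (limma over all 16693 probe sets tested, adjusted p = 0.000116 and 0.00377) and by -2.95 and -1.42 under PM (adjusted p = 0.000252 and 0.00820). All 3 Kcnd2 probe sets above 4 were therefore lower. Because the first of these reads nearly 1 value on 5 dnCREB arrays, its differences are not read as exact sizes. The other Kcnip2 probe set above 4 differed by -0.81 ± 0.39 (SE) under PBS and -0.65 ± 0.39 under PM and did not pass (adjusted p = 0.185 and 0.292). The remaining probe sets, 1 each of Kcnd2, Kcna4 and Kcnip2 and 3 of Kcnd3, lay under 4 on all 12 heart arrays.

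**Figure D3:**
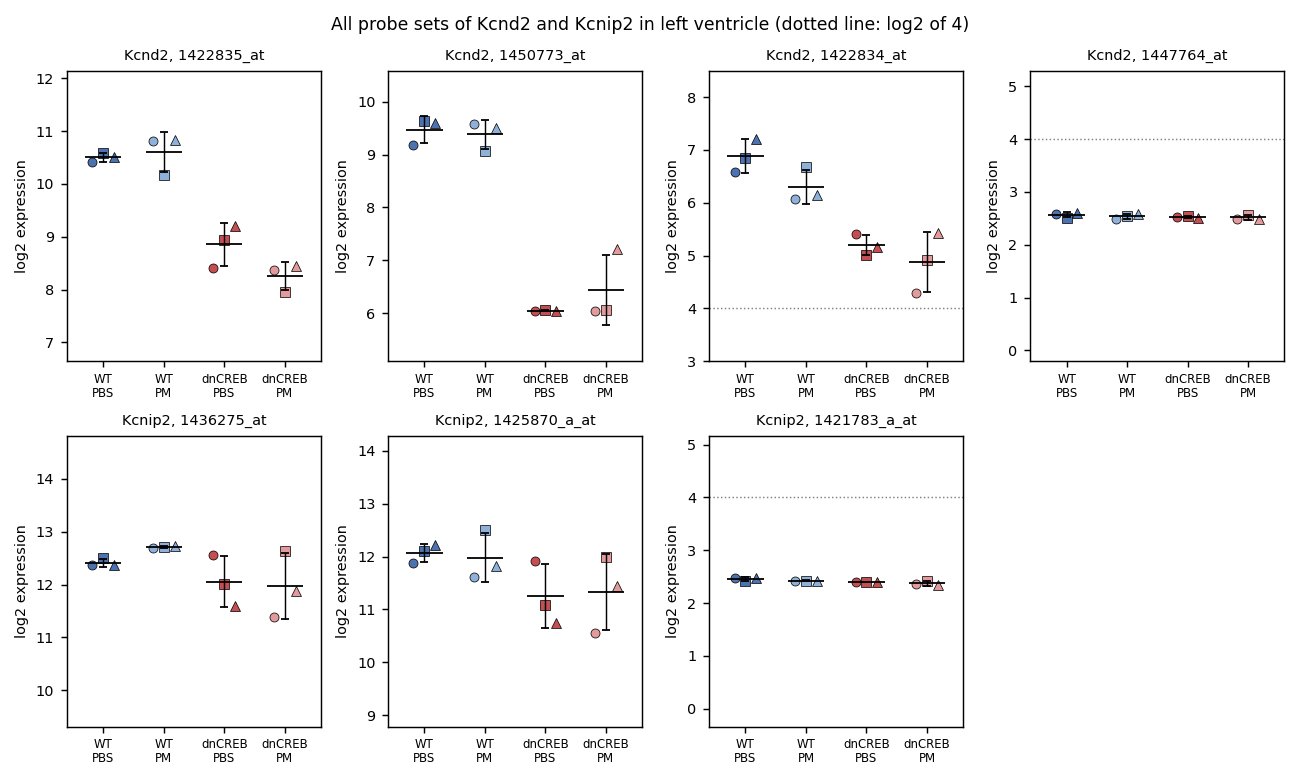
All probe sets of Kcnd2 and Kcnip2 on the 12 left ventricle arrays, in log2 expression, with each panel spanning 5.5 log2 units and a dotted line at the level of 4 where it falls in the panel. Points are arrays, horizontal lines group means and error bars the SD over 3 arrays; the 3 Kcnd2 probe sets above 4 are lower in dnCREB, and 1 probe set of each gene lies under 4 in every group.

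No PM difference of these genes in heart passed the threshold. In WT hearts 0 of the 8 passed, where 1 of 9962 genes (0.01%) did and 146 had an unadjusted p under 0.05. In dnCREB hearts 0 of the 8 passed, as did 0 of all genes (0%; limma, 490 at an unadjusted p under 0.05). Kcnd2 was at -0.60 ± 0.24 (SE) and Kcnd3 at -0.49 ± 0.21 after PM in dnCREB hearts (unadjusted p = 0.0290 and 0.0377, adjusted p = 0.966 for both), and at 0.10 ± 0.24 and 0.03 ± 0.21 in WT hearts. The 3 Kcnd3 arrays of dnCREB PM lay below the 3 of dnCREB PBS, as for 4.97% of all genes. The other Kcnd2 probe sets above 4 differed by 0.39 and -0.32 with PM in dnCREB hearts.

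The test of whether the PM difference itself depended on genotype passed for 0 of the 8 genes and 0 of all genes (0%; limma, 361 at an unadjusted p under 0.05). It gave -0.70 ± 0.33 (SE) for Kcnd2, -0.52 ± 0.29 for Kcnd3 and -1.65 ± 1.50 for Kcna5 (adjusted p = 0.980 for each). Kcna5 was at 0.90 ± 1.06 after PM in WT hearts and -0.74 ± 1.06 in dnCREB hearts. The first of these turned to -0.12 without WT PBS replicate 3, and the second ran from -1.62 without dnCREB PBS replicate 3 to -0.05 without dnCREB PBS replicate 2. The interaction of Kcna5 ran from -2.82 without WT PBS replicate 1 to -0.62 without WT PBS replicate 3, and that of Kcnd3 from -0.73 without WT PM replicate 2 to -0.30 without WT PM replicate 3. The sign for Kcnd3 in WT hearts turned with quantile normalization and with single arrays left out. Kcnip2 read higher on all 3 WT PM arrays than on the 3 WT PBS arrays, a pattern seen in 3.46% of all genes, and its other probe set above 4 did not show it.

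In lung most of these genes were not measurable. Kcnd3, Kcnip2, Kcna4 and Kcna5 lay under 4 on all 12 lung arrays and Kcnd2 on 11 of 12. Kcnq1 ran from 6.16 to 7.81, Kcnh2 from 4.06 to 4.96 and Hcn2 from 3.84 to 4.55, and these 3 were tested. The dnCREB minus WT difference averaged over the exposures was 0.23 ± 0.13 (SE) for Kcnh2, 0.03 ± 0.24 for Kcnq1 and -0.09 ± 0.11 for Hcn2, and none passed, with 1 of 11600 genes (0.00862%) called. With PM 784 genes (6.76%) were called in lung and 0 of these 3 (smallest adjusted p = 0.332). Among the 3 genes tested in both tissues, the genotype difference in heart minus that in lung passed lower for 2, against 5.66% of 9244 genes. It was -1.76 ± 0.22 for Kcnh2 and -1.33 ± 0.31 for Kcnq1 (limma, adjusted p = 1.36e-05 and 0.00564). Kcnh2 lay close to the level of 4 in lung, so a fall of the size in heart could hardly have shown there. For Kcnd2 and Kcnd3, under 4 on 11 and 12 of the lung arrays, no difference between the tissues could be read. The sex-chromosome class was split otherwise in lung than in heart and was not part of the heart minus lung fit.

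Promoter sequence was compared because 4 of these genes were lower together in hearts that carry a dominant negative CREB1, a factor that binds the cyclic AMP response element (CRE). RefSeq sequence of the GRCm38.p6 build was matched for 8 of the 9 genes, all but Kcnq1 and including Hcn4, and the 250 bases before the transcript start given there were read. For Kcnh2 and Kcnip2 that start lies inside the annotated gene, so their windows precede an internal start. The searched letters, on both strands, were TGACGTCA (full CRE), TGACG (CRE half-site, contained in the full CRE), CACCC (the box bound by Krüppel-like factors) and GGGCGG (GC box). The full CRE was in 0 of the 8 windows and the half-site in 0, while 1.55% and 17.8% of 32851 promoter windows held them. A CACCC box was in 7 of 8, against 52% of all windows, and a GC box in 6 of 8, against 32.7%. CACCC and GC boxes can overlap at their C bases. These counts describe letters in the windows. The 8 windows had a higher GC content than 52.6% (Kcna5) to 94.7% (Kcnh2) of all windows, and the counts were not adjusted for it.
Kcnd2 and Kcnd3, which were lower in dnCREB hearts, and Hcn2, whose 12 arrays lay close together, are shown 5′ to 3′ on the plus strand with the CACCC box, or GGGTG where it lies on the other strand, in capitals. The windows are chr6:21215096-21215345, chr3:105451640-105451889 and chr10:79716384-79716633, and each ends at the base before the annotated gene.
Kcnd2: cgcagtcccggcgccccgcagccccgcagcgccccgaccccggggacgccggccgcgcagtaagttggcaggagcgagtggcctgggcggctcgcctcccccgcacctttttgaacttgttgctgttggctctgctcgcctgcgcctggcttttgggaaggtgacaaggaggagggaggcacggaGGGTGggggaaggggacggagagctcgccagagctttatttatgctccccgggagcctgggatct
Kcnd3: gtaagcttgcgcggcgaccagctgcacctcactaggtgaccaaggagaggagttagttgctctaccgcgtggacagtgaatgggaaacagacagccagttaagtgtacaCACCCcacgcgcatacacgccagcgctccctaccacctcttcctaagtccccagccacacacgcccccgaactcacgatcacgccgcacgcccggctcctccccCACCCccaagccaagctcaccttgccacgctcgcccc
Hcn2: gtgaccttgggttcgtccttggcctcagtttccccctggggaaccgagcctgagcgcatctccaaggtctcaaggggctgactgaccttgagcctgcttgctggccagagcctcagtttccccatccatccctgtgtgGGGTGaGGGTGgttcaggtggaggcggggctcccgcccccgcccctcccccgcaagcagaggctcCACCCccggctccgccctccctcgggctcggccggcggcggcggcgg
The window of Kcnd2 held 1 CACCC box, that of Kcnd3 held 2 and that of Hcn2 held 3. Their GC content was 68.8%, 62.8% and 70.4%, against a median of 52.4% over all windows.

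Genes whose heart pattern was most like that of a member were taken over the 12 heart arrays, as descriptions that hold the genotype difference in common. Kcnh2 was closest to Ppara, a regulator of fatty acid oxidation (Pearson r = 0.98, and 0.81 after the group means were removed). Kcnq1 was closest to Cox7a2, Cox4i1 and Ndufa7, subunits of the respiratory chain (r = 0.98, 0.98 and 0.97, and 0.87, 0.91 and 0.80 within groups). Kcnd2 was closest to Nsmaf (0.98 and 0.72) and Kcnd3 to Hdac9 (0.95 and 0.74). Kcnip2 was closest to Cbr1 (0.96 and 0.94), Kcna5 to Dixdc1 (0.81 and 0.82) and Hcn2 to Cep63 (0.90 and 0.92). Among the members, the pairs Kcnh2 with Kcnq1 (0.93, and 0.61 within groups) and Kcnd2 with Kcnd3 (0.93, and 0.54 within groups) were the most alike over all arrays. Kcnd2 with Kcnq1 was at 0.77 over all arrays and -0.51 within groups. Within groups the highest r was that of Kcnh2 with Hcn2 (0.69) and the lowest that of Kcnd2 with Kcnip2 (-0.67).

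Other channel genes were read from lists of related genes. Of 36 other voltage-gated potassium and HCN pore genes, 26 were on the array and 4 were tested in heart, the rest lying under the filter. Kcnv2, a silent subunit that joins other pores, fell from 6.33 ± 1.41 to 2.85 ± 0.88 (SD, n = 3) under PBS (limma, adjusted p = 0.0133), to under the level of 4. Kcna6, another pore, fell by 0.50 ± 0.15 (SE) on the log2 scale averaged over the exposures (adjusted p = 0.0236). Of the 4 genes, 1 passed lower under PBS, 0 under PM and 2 averaged, against 5.6%, 9.13% and 13.6% of all genes. Of 19 accessory subunit genes 7 were tested, with 0 calls under PBS and 1 higher under PM, against 11.4% of all genes. Averaged, 1 was higher and 1 lower, against 22.3% and 13.6% of all genes. Kcne4, an inhibitory partner of Kcnq1, rose by 0.89 ± 0.24 under PM (adjusted p = 0.0274), a call that was lost after quantile normalization and with arrays centred on the median of the genes tested. Akap9, an anchor for Kcnq1, fell by 0.46 ± 0.15 averaged over the exposures (adjusted p = 0.0310). The median of the 7 was -0.09 under PBS, -0.22 under PM and -0.15 averaged, against 0.09, 0.02 and 0.05 over all genes. Kcne1, the partner of Kcnq1 in the slow delayed rectifier, was under the filter.

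Among 25 inward rectifier, ATP-sensitive, tandem-pore and calcium-activated potassium channel genes, 14 were tested and 1 passed higher and 5 lower under PBS, against 13.2% and 5.6% of all genes. Kcnj3 and Kcnj5, the pores of the acetylcholine-activated current, fell, with log2 differences of -4.33 and -1.20 (limma, adjusted p = 0.00113 and 0.00233). Abcc9 and Abcc8, regulators of ATP-sensitive channels, fell too, at -0.90 and -0.91 (adjusted p = 0.00150 and 0.00540). Kcnk3, a background channel, fell by 0.78 (adjusted p = 0.0126). Kcnj14, an inward rectifier, rose from under 4 to 9.33 ± 1.17 (SD, n = 3; adjusted p = 0.00495). Of 4 calcium and sodium channel genes tested, 1 passed lower under PBS and 1 under PM, against 5.6% and 9.13% of all genes. This was Cacna1c, the pore of the L-type calcium current, at -0.78 and -0.81 (limma, adjusted p = 0.00458 and 0.00387). Averaged over the exposures 3 of the 4 passed lower, against 13.6% of all genes, with a median of -0.64 against 0.05. In each of these comparisons 0 passed higher.

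Of 12 transcription factors known for setting such channels, 10 were tested, with 1 higher and 2 lower under PBS (13.2% and 5.6% of all genes) and a median of 0.09, against 0.09 over all genes. Klf15, a factor known to drive Kcnip2, fell from 10.84 ± 0.34 to 8.72 ± 0.35 (SD, n = 3) under PBS (limma, adjusted p = 0.00550), and the PM difference of -0.79 did not pass (adjusted p = 0.197). Hopx, a cofactor of heart development, fell by 2.00 under PBS, with a difference of -1.95 under PM (adjusted p = 0.00221 and 0.00253). Irx3, a conduction system factor, rose by 0.95 under PBS (adjusted p = 0.0464), which quantile normalization ended (0.79, adjusted p = 0.0879). Irx5, known as a repressor of Kcnd2, was at 1.32 under PBS and 0.82 under PM and did not pass (adjusted p = 0.0578 and 0.212), but rose averaged over the exposures, by 1.07 (adjusted p = 0.0204). When that class entered the fit as a covariate, the named genes of these lists that passed under PBS were Kcnj5, Kcnk3 and Hopx (limma, adjusted p = 0.0257, 0.00848 and 0.0344). Kcnv2, Kcnj3, Kcnj14, Abcc8, Abcc9, Cacna1c, Klf15 and Irx3 did not, at adjusted p from 0.0802 to 0.701. Under PM Kcnj3, Kcnj5, Kcnk3, Abcc9, Cacna1c and Hopx passed in that fit.

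**Figure D4:**
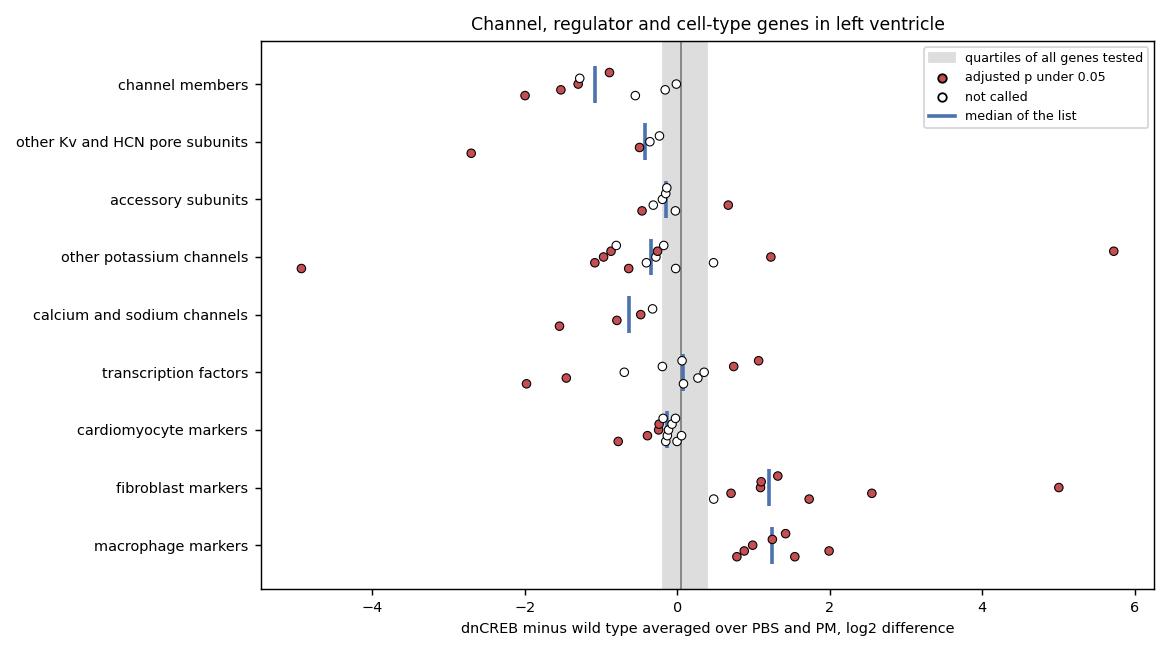
Difference between dnCREB and WT hearts averaged over the exposures, in log2 units, for each tested gene of the channel set and of 8 lists. Filled points have an adjusted p under 0.05, blue bars are list medians, and the grey band spans the quartiles of all genes tested (-0.19 to 0.39); the fibroblast and macrophage points lie to the right of the median of all genes and the 8 channel genes to its left.

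Markers of cell types moved beside the channels. Of 12 cardiomyocyte markers, 1 passed lower under PBS, 2 under PM and 4 averaged over the exposures, where 5.6%, 9.13% and 13.6% of all genes did, with medians of -0.14, -0.16 and -0.14. The log2 of their summed level ran from 19.62 to 19.88 in WT PBS and from 19.54 to 19.66 in dnCREB PBS hearts. Whether values this high lay near the top of the array range, where differences could be understated, was not tested. Ryr2, the calcium release channel, fell by 0.96 under PBS (limma, adjusted p = 0.00480), and the other 11 cardiomyocyte markers did not pass under PBS. Higher calls made up 13.2%, 11.4% and 22.3% of all genes under PBS, under PM and averaged. Of 8 fibroblast markers, 6 rose under PBS, 6 under PM and 7 averaged (6, 7 and 7 with the class as a covariate), with medians of 1.25 and 1.18, and their summed level ran from 14.96 to 15.14 in WT PBS against 16.46 to 16.69 in dnCREB PBS hearts. Of 7 macrophage markers, 1 rose under PBS, near the share of all genes, 5 under PM and 7 averaged (0, 2 and 1 with the class as a covariate), with summed levels of 13.13 to 13.89 in WT PM and 15.14 to 15.28 in dnCREB PM hearts. Under PBS the macrophage sums overlapped, at 13.62 to 15.16 in WT and 14.55 to 15.45 in dnCREB hearts. The part of these marker shifts in the channel results was not tested. In bulk ventricle, fewer cells of a type and less RNA per cell cannot be told apart.

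Atrial and pacemaker tissue markers were checked because the pacemaker channels are highest there. Of 7 atrial markers, Sln, Myl7 and Bmp10 were under 4 in all 12 hearts. Of the 4 tested 2 rose under PBS, 1 under PM and 3 averaged, against 13.2%, 11.4% and 22.3% of all genes. Their summed level ran from 13.24 to 14.41 in WT PBS and from 15.72 to 15.97 in dnCREB PBS hearts. Nppa, a natriuretic peptide that is also known to return in stressed ventricle, rose by 2.10 (limma, adjusted p = 0.00224). Of 8 pacemaker and conduction markers, Tbx3 and Smoc2 were tested and neither passed, and Shox2 and Isl1 were under the filter. The summed level of the 8 ran from 10.86 to 11.40 in WT PBS and from 11.50 to 11.94 in dnCREB PBS hearts. Under PM the ranges overlapped, at 11.43 to 11.58 in WT and 10.77 to 12.33 in dnCREB hearts. In each group 6 of the 8 genes lay under 4 on all 3 arrays. Endothelial markers gave 0 calls of 6 under PBS and under PM, and neuron and Schwann cell markers 0 of 3. Smooth muscle and pericyte markers gave 1 of 5 higher under PBS and 0 under PM. Skeletal muscle markers gave 1 of 3 higher under PBS and 1 higher and 1 lower under PM. Of all genes 13.2% were higher under PBS, and 11.4% were higher and 9.13% lower under PM. Averaged over the exposures, 1 of 6 endothelial, 2 of 5 smooth muscle and pericyte and 1 of 3 skeletal muscle markers were higher, against 22.3%. In that average 1 skeletal muscle marker was lower, against 13.6%, and 0 of 3 neuron and Schwann cell markers passed. The endothelial and smooth muscle medians were then 0.26 and 0.55, against 0.05 over all genes. The part of these shifts was likewise not tested.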

How the data were processed

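RNA of mouse lung and left ventricle was measured on Affymetrix arrays, 24 in all. The deposited log2 values, 1 for each probe set, come from GCRMA, per the submitters' processing notes, which give no version. GCRMA corrects background from probe sequence, normalizes between arrays and summarises probe sets. The lowest values may reflect background, and tissues were fitted separately because they may have been normalized separately. No further normalization was applied. Of 45037 probe sets, 34945 matched 1 gene symbol in GEO's platform annotation, 932 several and 9160 none, and the last 2 kinds were left out. Group means were fitted with limma 3.58.1 in R 4.3.3 (lmFit, contrasts, eBayes), on the 12 arrays of a tissue, and p-values were adjusted by Benjamini-Hochberg over all genes tested, with a call at 0.05. The heart minus lung difference used all 24 arrays in 8 groups. The number of arrays limits the precision. All 9 genes were named, up to 6 genes with the smallest p in the averaged genotype comparison from each list, and the 3 genes of highest Pearson r for each member. The members and lists were chosen with earlier results of these data known. Same-numbered arrays of different groups did not deviate together (r from -0.30 to 0.31 over 18 pairs, 4 over 0.1), so numbers were not taken to pair the samples. The fitting script was tested on simulated data. Alternatives were other filters, probe set choice, scalings, array weights, a variance trend, only the groups compared, the sex-chromosome class, a replicate block and each array left out.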

Additional observations from a re-analysis of the deposited data

Results flagged for a closer look

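The genotype difference was not the same in heart and lung for Kcnh2 (-1.76) and Kcnq1 (-1.33), which had a lower dnCREB minus WT difference in heart than in lung, averaged over the exposures, by a test of the difference itself (limma, adjusted p = 1.36e-05 and 0.00564). With each of the 24 arrays left out in turn, the differences ran from -1.86 to -1.63 and from -1.49 to -1.11. Kcnh2 lay at 4.06 to 4.96 in lung, close to the level of 4, so a fall there could hardly have shown. Xist was above Eif2s3y on 6 of 6 WT and 1 of 6 dnCREB arrays in heart, but on 2 of 6 and 4 of 6 in lung. The sex-chromosome class was not part of this fit, and its part in the differences was not tested.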

How the results depend on the processing

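Depth is not defined for arrays, and 3 arrays per group limit the precision. Of the 8 channel genes, 3 (PBS), 4 (PM) and 4 (averaged) were called lower in dnCREB hearts, and these counts stayed within 1.5 times under every alternative but the sex-chromosome class covariate, which gave 0 under PBS and 2 averaged. That covariate also left 337, 942 and 865 of all genes called, with 4 for PM in dnCREB hearts and 3 for the interaction. Same-numbered arrays shared only a number. The replicate block kept 3, 4 and 4 of the 8 genes and 1734 of all genes under PBS, gave 0 genes for PM in WT hearts, and changed no other call of a channel gene. PM in WT hearts also gave 0 genes with no filter and with only the groups compared, and 2 with arrays centred on the median of the genes tested, a setting chosen after seeing the data. The genotype difference under PM gave 1198 genes with only the groups compared. PM in lung gave 507 genes with no filter. With each array left out in turn, all genes called ran from 1091 to 2021 under PBS (1182 without WT PBS replicate 3 and 1091 without dnCREB PBS replicate 3), 0 to 3 for PM in WT hearts, 0 to 5 for PM in dnCREB hearts, 0 to 3 for the interaction, 0 to 3 for genotype in lung and 155 to 1324 for PM in lung. Signs turned for these values, none of which passed as deposited. Kcnd3 with PM in WT hearts was at -0.0044 after quantile normalization and -0.025 with the centring on tested genes, and from -0.19 to 0.24 with arrays left out. Kcnd2 there ran from -0.015 to 0.32 and Kcna5 from -0.12 to 2.08. The genotype difference of Kcna5 under PBS ran from -1.48 to 0.72. That of Hcn2 was at 0.022 and 0.057 under PBS and 0.0056 and 0.020 averaged, with arrays centred on their median and with array weights, and ran from -0.12 to 0.075 under PBS, -0.048 to 0.018 under PM and -0.067 to 0.030 averaged. Kcnq1 in lung ran from -0.19 to 0.19. The cause of these changes was not tested.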
